A study of Mus musculus with 16 samples.

Results

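The expression of 7 genes that mark hepatic stellate cells and myofibroblasts was examined in mouse liver: Reln, Pdgfrb, Ddr2, Vim, S100a4, Acta2 and Mylk. They were taken by name from the 760 genes of the panel, and all 7 were measured above the floor used for testing, a mean normalized count of 20 over all animals, which 612 genes reached. The livers came from 16 male C57BL/6J mice housed at 29 degrees C and fed a diet that induces MASH (metabolic dysfunction-associated steatohepatitis), in which fat, largely from palm oil, gave 40% and fructose 20% of the calories, with 0.02% cholesterol added. The control group was 8 mice given vehicle, 1.5% CMC (carboxymethyl cellulose) with 0.2% Tween-20. The other 8 mice received EVT0185 at 100 mg/kg by gavage, a compound that the study's title describes as an inhibitor of acetyl-CoA metabolic enzymes. Both groups carried the diet and the housing temperature, and no lean or chow-fed group was analysed here, so the values compare treated with untreated diseased liver. The labels do not state the age of the mice, the length of dosing, or whether EVT0185 was dissolved in that vehicle. The series asks whether the compound impairs stellate cell activation.

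Hepatic stellate cells lie between the hepatocytes and the sinusoidal endothelium and store vitamin A when quiescent. In injured liver they become myofibroblasts, which divide in response to platelet-derived growth factor, contract through smooth muscle actin and myosin, and deposit fibrillar collagen. For reading, the genes were grouped as identity genes (Reln, Pdgfrb and Ddr2), activation genes (Vim and S100a4) and contractile genes (Acta2 and Mylk). The groups are not exclusive: Acta2 also marks activation, and identity genes such as Pdgfrb and Ddr2 may change with activation too. Neither the level of Pdgfrb nor a ratio to it therefore measures the number of stellate cells. None of the 7 is exclusive to stellate cells: Vim is also made by endothelial cells and leukocytes, S100a4 by monocytes and macrophages, and Acta2 and Mylk by vascular smooth muscle. In RNA from whole liver, fewer cells of a type and less RNA per cell cannot be told apart.

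Total counts recovered from the deposited values ranged from 1462994 to 1850800 per animal. Over all 612 tested genes the median difference between the groups was -0.10 on the log2 scale, and 200 genes passed a Benjamini-Hochberg adjusted p of 0.05 in limma, 68 higher and 132 lower in EVT0185 livers. The called genes were 32.7% of those tested, with 11.1% higher and 21.6% lower. When each animal was centred on its median gene, 53.3% of the called genes were higher, against 34% as deposited, so each member is also given after such centring. The median log2 value of the tested genes was lowest in vehicle 7 (7.63) and EVT0185 2 (7.60), against at least 7.88 in the other vehicle and 7.74 in the other EVT0185 animals. Results that turn on these 2 animals are given with and without them.

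Of the 7 genes, S100a4 and Mylk fell in EVT0185 livers, one from the activation group and one from the contractile group. The identity genes Reln, Pdgfrb and Ddr2 were not called, nor were Vim and Acta2. The log2 difference of Reln (-0.41, limma adjusted p = 0.0641) was close to that of Mylk (-0.42, limma adjusted p = 0.0405). The median log2 difference was -0.27 for the identity and -0.31 for the contractile genes. The calls thus do not set the identity genes apart from the contractile genes. A share of 2 in 7 lies near the 21.6% of all tested genes that were called lower. All 7 estimates were below 0 on the deposited scale, with a median of -0.29 on the log2 scale, against -0.10 over all tested genes. Of all tested genes, 66% had an estimate below 0. Under quantile normalization the estimates of Ddr2 (0.16) and Acta2 (0.0031) turned above 0, and Ddr2 also did so after median centring (0.035) and geometric mean centring (0.043).

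**Figure D1:**
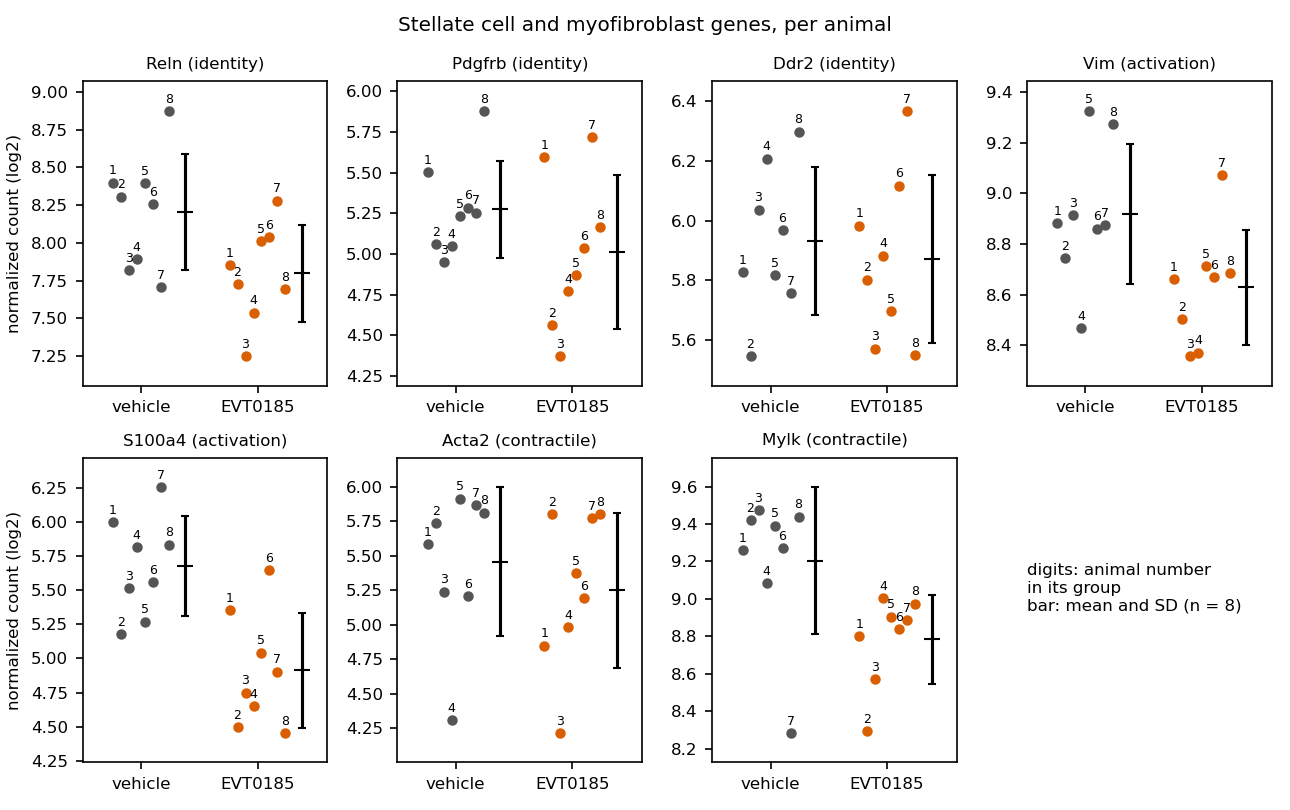
Normalized count (log2) of each gene in every animal, 8 vehicle and 8 EVT0185, with the mean and SD of each group as a bar and the animal number beside each point. For S100a4, 6 of 8 EVT0185 animals lie below every vehicle animal, and for Mylk vehicle 7 lies level with the lowest EVT0185 animal while the other vehicle animals lie above all EVT0185 animals.

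Reln encodes reelin, a secreted glycoprotein that in liver is made by stellate cells. Its normalized count in vehicle livers was lowest at 209 (vehicle 7), with a median of 311 and a highest value of 469 (vehicle 8). In EVT0185 livers it was lowest at 152 (EVT0185 3), with a median of 221 and a highest value of 311 (EVT0185 7). All 8 EVT0185 animals lay below the vehicle median and 3 lay below every vehicle animal. The log2 difference was -0.41 (SE 0.16, 95% confidence interval -0.75 to -0.062, limma adjusted p = 0.0641), so Reln missed the threshold over all genes. It passed without vehicle 3, vehicle 7 or EVT0185 7 (limma adjusted p = 0.046, 0.0274 and 0.035). After median centring the difference was -0.31 (limma adjusted p = 0.111).

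Pdgfrb is the receptor through which platelet-derived growth factor drives stellate cells to divide. Its normalized count ran from 30.9 to 58.8 in vehicle livers, with a median of 37.9, and from 20.7 to 52.7 in EVT0185 livers, with a median of 31.0. The groups overlapped: 4 EVT0185 animals lay below every vehicle animal, and EVT0185 7 and EVT0185 1 lay above every vehicle animal but vehicle 8. The log2 difference was -0.27 (SE 0.19, 95% confidence interval -0.66 to 0.13, limma adjusted p = 0.297). The interval reaches from a level 1.58-fold lower to one 1.10-fold higher in EVT0185 livers. After median centring the difference was -0.17 (limma adjusted p = 0.522). Counting error alone made up 61.1% of the variance of Pdgfrb between vehicle animals and 30.8% between EVT0185 animals, on 20 to 68 recovered counts per animal.

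Ddr2, a receptor tyrosine kinase that binds fibrillar collagen, lay at 46.7 to 78.8 in vehicle livers, with a median of 59.7. In EVT0185 livers it lay at 46.8 to 82.6, with a median of 57.4, and the 2 ranges were nearly the same. The log2 difference was -0.061 (SE 0.13, 95% confidence interval -0.34 to 0.22, limma adjusted p = 0.753). A fall of more than 1.27-fold lies outside the interval. Of the 7 genes, Ddr2 had the estimate nearest to 0 on the deposited scale.

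Among the activation genes, Vim encodes vimentin, the intermediate filament protein of mesenchymal cells. Its normalized count ran from 354 to 642 in vehicle livers, with a median of 471, and from 328 to 538 in EVT0185 livers, with a median of 406. In 7 of 8 EVT0185 animals it lay below the vehicle median, and EVT0185 7 was the exception. The log2 difference was -0.29 (SE 0.12, 95% confidence interval -0.55 to -0.035, limma adjusted p = 0.074), and -0.19 after median centring (limma adjusted p = 0.218). It passed without vehicle 4 or EVT0185 7 (limma adjusted p = 0.0259 and 0.0284).

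S100a4, a calcium-binding protein once used as a fibroblast marker, showed the largest difference of the 7. Its normalized count in vehicle livers ran from 36.2 (vehicle 2) to 76.3 (vehicle 7), with a median of 51.7. In EVT0185 livers it ran from 21.9 (EVT0185 8) to 50.2 (EVT0185 6), with a median of 28.4. All 8 EVT0185 animals lay below the vehicle median, and 6 lay below every vehicle animal, as was so for at least 6 animals in 9.97% of the tested genes. The level was 1.7-fold lower with EVT0185, a log2 difference of -0.77 (SE 0.19, 95% confidence interval -1.16 to -0.37, limma adjusted p = 0.0048). It was also called after median centring (log2 -0.67, limma adjusted p = 0.0183), geometric mean centring (-0.66) and quantile normalization (-0.62), and without any 1 of the 16 animals (limma adjusted p up to 0.0118). Counting error made up 30.8% and 41.3% of its variance between vehicle and between EVT0185 animals.

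Genes of leukocytes moved in the same direction as S100a4. Of 6 tested macrophage and monocyte markers, 2 fell and 0 rose: Ccr2, the chemokine receptor of recruited monocytes (log2 -0.83, SE 0.22, limma adjusted p = 0.00713), and the lysosomal glycoprotein Cd68 (log2 -0.50, SE 0.17). After median centring 1 of these 6 was called. Of all tested genes, 21.6% were called lower as deposited and 13.7% after median centring. The summed normalized count of this list ran from 808 to 2776 in vehicle and from 982 to 1331 in EVT0185 livers, and none of its genes was at 0. Ptprc, the CD45 antigen of all leukocytes, fell by 0.42 on the log2 scale and was the 1 gene called of the 3 tested genes in the lymphocyte list, whose 14 panel members summed to 268 to 384 in vehicle and 252 to 328 in EVT0185 livers. Csf3r, the only neutrophil marker tested, fell by 0.54. Neither Ptprc nor Csf3r was called after median centring. The part of leukocytes in the fall of S100a4 was not tested.

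**Figure D2:**
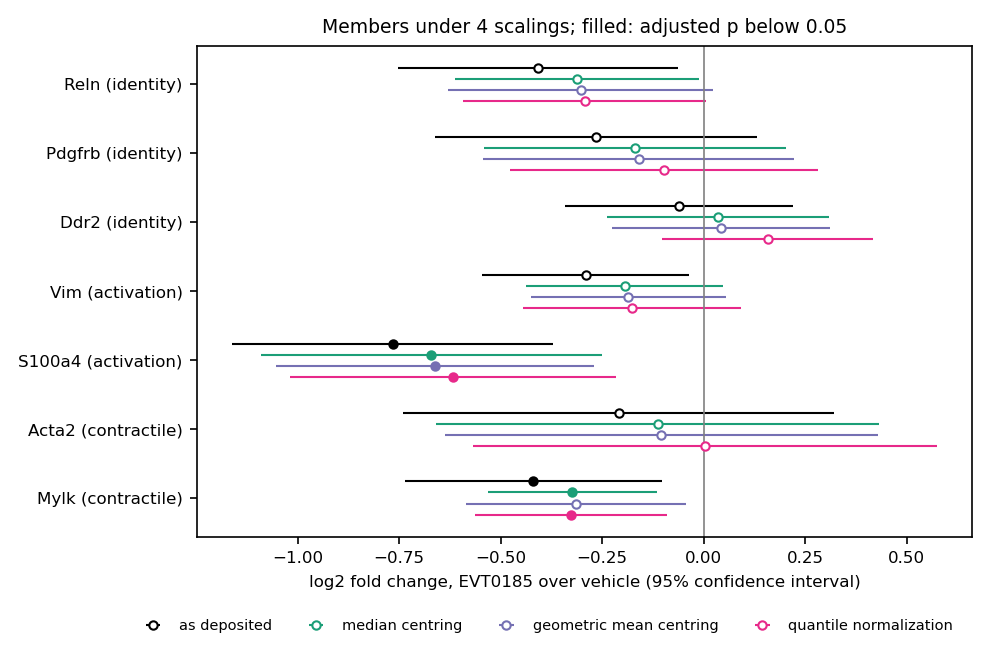
Log2 fold change of each gene, EVT0185 over vehicle, with its 95% confidence interval from limma (8 animals per group), for the deposited values and 3 other scalings. Filled points are below an adjusted p of 0.05: S100a4 under all 4 scalings and Mylk under all but geometric mean centring, where its adjusted p was 0.0721.

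Of the contractile pair, Acta2 encodes smooth muscle actin, the usual marker of an activated stellate cell. Its normalized count in vehicle livers ran from 19.9 (vehicle 4) to 60.3 (vehicle 5), with a median of 50.6. In EVT0185 livers it ran from 18.6 (EVT0185 3) to 55.8 (EVT0185 2), with a median of 39.1, and the groups overlapped over most of their range. The log2 difference was -0.21 (SE 0.25, 95% confidence interval -0.74 to 0.32, limma adjusted p = 0.571). Its SD between animals was 0.54 in vehicle and 0.56 in EVT0185 livers on the log2 scale, the widest of the 7 in both groups, and counting error made up only 17.7% and 18.8% of that variance. The interval reaches from 1.67-fold lower to 1.25-fold higher, so a moderate change in either direction was not detectable with this spread. After median centring the difference was -0.11 (limma adjusted p = 0.786).

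Mylk encodes myosin light chain kinase, which switches on contraction by phosphorylating myosin. Its normalized count in vehicle livers was 312 in vehicle 7 and 543 to 711 in the other animals, with a median of 645. In EVT0185 livers it ran from 313 (EVT0185 2) to 514 (EVT0185 4), with a median of 465. Leaving aside vehicle 7, every vehicle animal lay above every EVT0185 animal, a separation that 4.58% of the tested genes showed with that animal left out and 2.29% with all animals. The level was 1.34-fold lower with EVT0185, a log2 difference of -0.42 (SE 0.15, limma adjusted p = 0.0405). Without vehicle 7 the log2 difference was -0.55 (limma adjusted p = 0.000462), and after median centring of all animals it was -0.32 (limma adjusted p = 0.0206). The call stood close to the threshold with all animals: it held without 6 of the 16 animals and was lost without any 1 of the other 10 (vehicle 1, 2, 3, 5, 6 or 8, or EVT0185 1, 2, 3 or 6), with a limma adjusted p up to 0.0831.

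The 2 contractile genes are both known targets of serum response factor, which binds the CArG box, so the 250 bases before each gene's start are shown (RefSeq, GRCm38.p6, 5′ to 3′ on the gene's strand), with CArG matches of up to 1 mismatch in capitals. The Acta2 sequence lies at chr19:34255374-34255623 on the minus strand and the Mylk sequence at chr16:34784700-34784949 on the plus strand.
Acta2: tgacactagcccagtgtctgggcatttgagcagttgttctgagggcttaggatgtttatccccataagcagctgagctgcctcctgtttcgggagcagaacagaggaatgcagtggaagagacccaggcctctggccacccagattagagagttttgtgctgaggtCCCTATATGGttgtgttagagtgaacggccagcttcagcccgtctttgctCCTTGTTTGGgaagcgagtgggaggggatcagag
Mylk: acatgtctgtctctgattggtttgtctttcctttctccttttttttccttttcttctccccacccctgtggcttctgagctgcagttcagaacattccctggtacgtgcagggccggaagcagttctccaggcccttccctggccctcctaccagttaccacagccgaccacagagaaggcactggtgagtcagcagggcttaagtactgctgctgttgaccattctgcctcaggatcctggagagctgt
An exact CArG box was found in neither sequence, and 1.47% of 32841 mouse promoter windows of this length held one. With up to 1 mismatch, allowed after the exact search, Acta2 held 2 matches, at positions -84 to -75 and -34 to -25 before the annotated start, and Mylk held 0. Only this 1 window was searched for each gene. Any other start of either gene, and bases outside the window, were not, so the 2 genes cannot be contrasted by these counts. Of all windows, 18.6% held such a match. The motif reads the same on both strands, and a match describes letters only.

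Ratios within a liver set the genes against each other and do not change when an animal's values are all multiplied by 1 factor, as in median or geometric mean centring. Quantile normalization can change them. Relative to Pdgfrb, 0 of the other 6 genes was called in limma, with S100a4 alone below an unadjusted p of 0.05, while 9.33% of all tested genes were called, 2.78% lower and 6.55% higher. The log2 ratio of S100a4 to Pdgfrb averaged 0.40 ± 0.37 (SD, n = 8) with vehicle against -0.098 ± 0.50 (SD, n = 8) with EVT0185, a difference of -0.50 (SE 0.24, 95% confidence interval -0.99 to -0.016, limma adjusted p = 0.209). The ratio of S100a4 thus missed the threshold over all genes, although its level passed. The ratio of Acta2 to Pdgfrb differed by 0.056 (95% confidence interval -0.44 to 0.56) and that of Reln to Pdgfrb by -0.14 (95% confidence interval -0.56 to 0.28). The ratios of Vim and Mylk to Pdgfrb differed by -0.025 and -0.15, and that of Ddr2 by 0.20. Relative to Acta2, 0 of the other 6 genes was called, with none below an unadjusted p of 0.05, and the differences ran from -0.56 for S100a4 to 0.15 for Ddr2, while 3.6% of all tested genes were called, 1.31% lower and 2.29% higher.

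Col1a1 was lower relative to Pdgfrb in EVT0185 livers. The log2 ratio of Col1a1, a chain of type I collagen, to Pdgfrb averaged 1.98 ± 0.53 (SD, n = 8) with vehicle against 1.29 ± 0.43 (SD, n = 8) with EVT0185, a difference of -0.69 (SE 0.23, limma adjusted p = 0.0366). For the other chain, Col1a2, the difference was -0.58 (SE 0.21, limma adjusted p = 0.0619). For Col3a1, of type III collagen, it was -0.46 (limma adjusted p = 0.188). By exact permutation of the group labels, the unadjusted p was 0.0146 for Col1a1, 0.000932 for Col1a2 and 0.00684 for Col3a1. The limma call of Col1a1 thus does not set it apart from the other 2 collagen genes. Without vehicle 3, EVT0185 3, EVT0185 5 or EVT0185 7 the ratio of Col1a2 passed. The call for Col1a1 held without 6 of the 16 animals and was lost without any 1 of the other 10 (vehicle 1, 2, 5, 6 or 8, or EVT0185 1, 2, 4, 6 or 8), with a limma adjusted p up to 0.105. The ratio of Col1a1 to Acta2 differed by -0.74 (SE 0.33, limma adjusted p = 0.266).

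**Figure D3:**
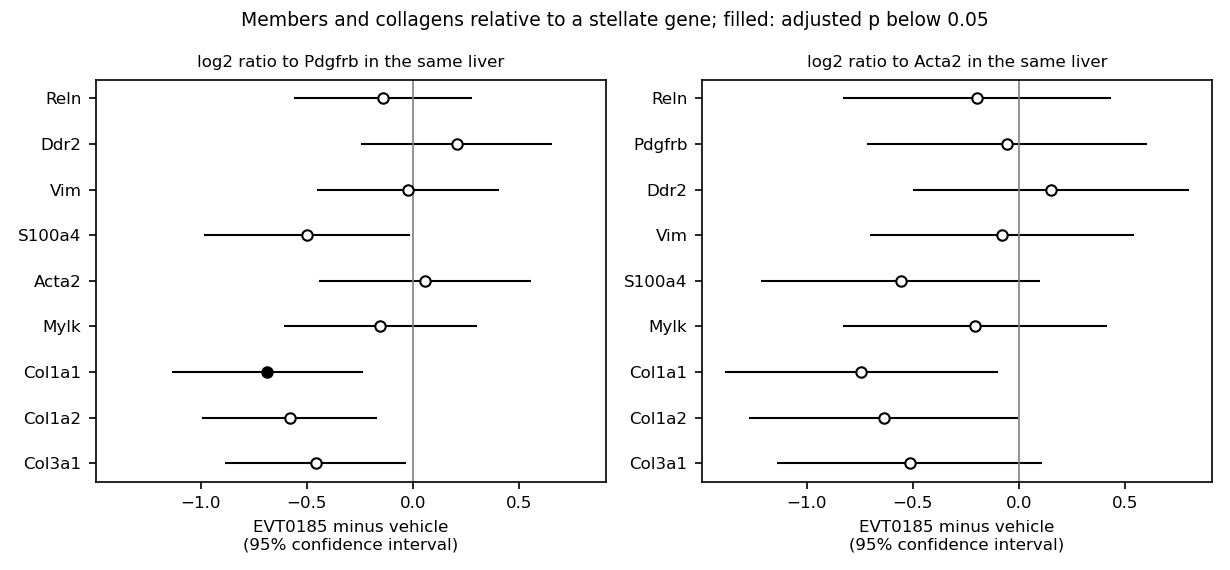
Difference between EVT0185 and vehicle livers (8 animals each) in the log2 ratio of each gene to Pdgfrb (left) or to Acta2 (right) in the same liver, with the 95% confidence interval. The ratio of Col1a1 to Pdgfrb is the one filled point (-0.69, adjusted p = 0.0366), and the ratios of Reln, Vim, Acta2 and Mylk to Pdgfrb lie between -0.15 and 0.056.

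Other genes of the stellate cell programme were counted from lists written with earlier results of these data known. Of 7 tested fibrillar and microfibrillar collagens, 5 fell and 0 rose, with a list median of -0.72 on the log2 scale against -0.10 over all tested genes. Col6a3, of type VI collagen, fell by 0.92 (SE 0.19, limma adjusted p = 0.00138), Col1a2 by 0.85 (SE 0.19) and Col3a1 by 0.72 (SE 0.21). Col1a1 fell by 0.95 (SE 0.30). After median centring 4 of the 7 were called lower. Over all tested genes 21.6% were called lower as deposited and 13.7% after median centring.

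Of 6 other stellate cell and fibroblast markers, 3 fell and 0 rose, with a list median of -0.52, and 2 were called after median centring. The same shares of all tested genes, 21.6% and 13.7%, stand beside these counts. The 3 that fell were the gelatinase Mmp2 (log2 -1.23, SE 0.28, limma adjusted p = 0.00287), fibronectin (Fn1, log2 -0.62, SE 0.14) and the collagen crosslinking enzyme Loxl2 (log2 -0.42, SE 0.14). Postn, which encodes the matrix protein periostin, differed by 0.011 (SE 0.15, limma adjusted p = 0.961). Fap, Lox and Eln of the same list lay under the floor and were not tested.

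Genes of the members' signalling and contractile pathways were counted in the same way, against the 21.6% of all tested genes called lower. The counts are small and no list is read as set apart from that share. Pdgfb, a ligand of Pdgfrb, was the only other PDGF gene tested and had a log2 difference of -0.27 (SE 0.15, limma adjusted p = 0.192). Among 3 collagen receptors, Itga1, the integrin subunit that binds collagen, fell by 0.38 (SE 0.076, limma adjusted p = 0.000995), while Ddr2 and the shared integrin subunit Itgb1 were not called on the deposited scale. Of 9 TGF-beta genes, 2 fell: Tgfbr1, which encodes a receptor subunit, by 0.42 (SE 0.087) and Thbs1, thrombospondin, an activator of latent TGF-beta, by 0.68 (SE 0.17). After median centring 1 gene of each of these 2 lists was called higher. Ccn2, a TGF-beta responder, differed by -0.48 (SE 0.19, limma adjusted p = 0.0612). Of 3 contractile genes, Mylk fell, and Rock2, a kinase that promotes actomyosin contraction, differed by -0.0028 (SE 0.16, limma adjusted p = 0.988).

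Markers of other cell types gave these values. Of 7 tested endothelial markers, 0 passed in limma in either direction, 0 of them at an unadjusted p below 0.05 and 0 after median centring or quantile normalization. Their summed normalized count ran from 789 to 1246 in vehicle and from 871 to 1165 in EVT0185 livers, with none at 0. Spp1, osteopontin, the only tested gene of the cholangiocyte list and one also made by macrophages, fell by 0.94 (log2, SE 0.34, limma adjusted p = 0.0427) and was not called after median centring. Of 12 hepatocyte markers, 7 fell and 0 rose, with a list median of -0.46 against -0.10 over all tested genes. Of all tested genes, 21.6% were called lower and 11.1% higher. After median centring 5 fell, and after quantile normalization 5 fell and 1 rose. Their summed normalized count ran from 533965 to 698405 in vehicle and from 461502 to 544040 in EVT0185 livers. The part of these cell types in the differences of the 7 genes was not tested.

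Covariation was read within each group, over 8 animals, for the 21 pairs of the 7 genes and for each gene with Col1a1. Of these 56 correlations, 2 passed a Benjamini-Hochberg adjusted p of 0.05, one in each group and both with Col1a1. In vehicle livers Reln followed Col1a1 (r = 0.94, exact permutation p = 0.00107, adjusted p = 0.0299, and rho = 0.95, exact permutation p = 0.00114, adjusted p = 0.0319). Without the 2 animals farthest from the median of Reln, r was 0.93. In EVT0185 livers Vim followed Col1a1 (r = 0.94, exact permutation p = 0.000149, adjusted p = 0.00833, and rho = 0.98, exact permutation p = 0.000397, adjusted p = 0.0222). Without the 2 animals farthest from the median of Vim, r was 0.93. After median centring r was 0.91 (exact permutation p = 0.00533) and no longer passed (adjusted p = 0.113).

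Each of these pairs was also positive in the other group. Reln with Col1a1 had r = 0.82 in EVT0185 livers (exact permutation p = 0.0136, adjusted p = 0.127). Vim with Col1a1 had r = 0.56 in vehicle livers (exact permutation p = 0.147, adjusted p = 0.403). Whether r differed between the groups was not tested. Pdgfrb with Col1a1 reached r = 0.88 in vehicle and 0.64 in EVT0185 livers (exact permutation adjusted p = 0.0535 and 0.338), and without the 2 animals farthest from the median of Pdgfrb r was 0.59 in vehicle livers. In vehicle livers without vehicle 7 it was 0.91 (exact permutation p = 0.00179) and passed after adjustment.

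The same animals stood at the ends of several genes. Vehicle 8 was highest of its group for Reln, Pdgfrb and Ddr2 and for Col1a1, Col1a2 and Col3a1. EVT0185 7 was highest of its group for Reln, Pdgfrb, Ddr2, Vim and the same collagens, and EVT0185 3 was lowest for Reln, Pdgfrb, Vim and Acta2. Among the 21 pairs of the 7 genes, 15 had r above 0 in vehicle and 20 in EVT0185 livers, with medians of 0.28 and 0.49. After median centring, 14 and 15 pairs had r above 0, with medians of 0.22 and 0.34. With all animals, none of the 21 passed after adjustment in either group, and 3 in vehicle and 4 in EVT0185 livers had an unadjusted exact permutation p below 0.05, among them Reln with Pdgfrb in both groups (r = 0.78 and 0.73), Reln with Vim in EVT0185 livers (r = 0.90) and, with the opposite sign, S100a4 with Mylk in vehicle livers (r = -0.72). Without the 2 animals farthest from the median of Reln, r of Reln with Pdgfrb was 0.76 in vehicle and 0.25 in EVT0185 livers. For S100a4 with Mylk in vehicle livers, r was -0.42 without the 2 animals farthest from the median of S100a4 (exact permutation p = 0.397). It was -0.49 without vehicle 7 (exact permutation p = 0.262). Without vehicle 7 and EVT0185 2, left out after the data were seen, Reln with Pdgfrb in vehicle livers (r = 0.90, exact permutation p = 0.00377) and Reln with Vim in EVT0185 livers (r = 0.91, exact permutation p = 0.00357) passed after adjustment.

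**Figure D4:**
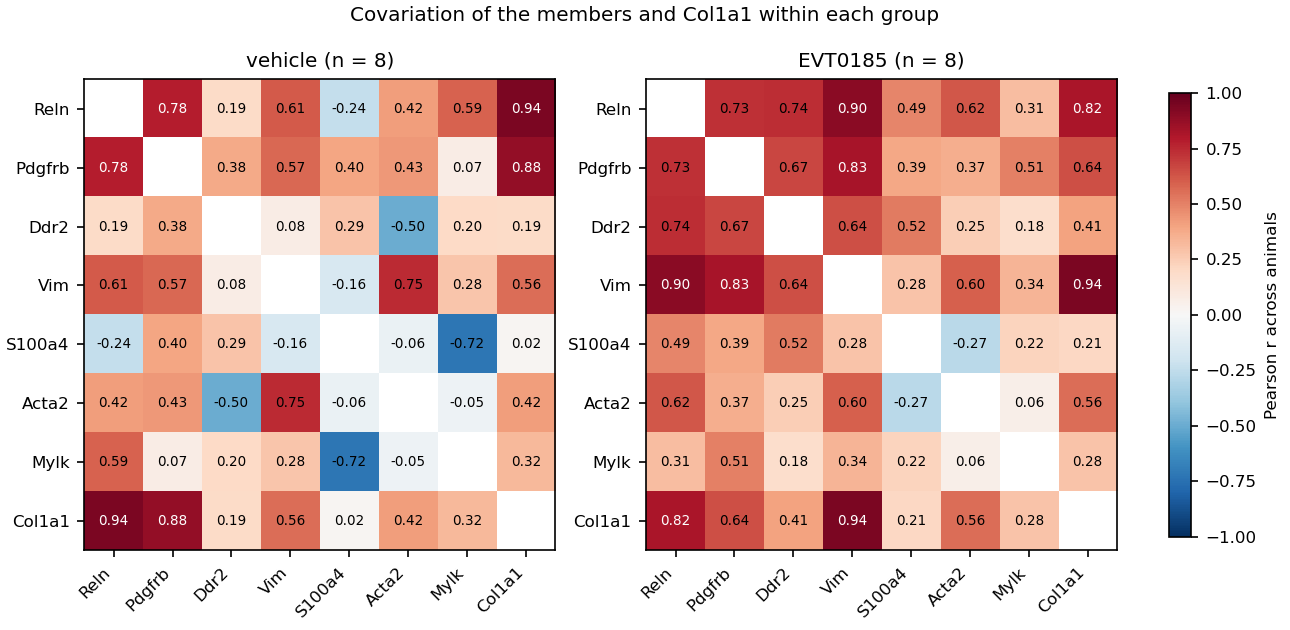
Pearson r across the 8 animals of each group (vehicle left, EVT0185 right) for every pair of the 7 genes and Col1a1. Reln with Col1a1 stands at 0.94 in vehicle and Vim with Col1a1 at 0.94 in EVT0185 livers, while S100a4 with Col1a1 stands at 0.02 and 0.21.

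No correlation of S100a4 or Acta2 with Col1a1 was detectable in either group. The same held for Ddr2 (r = 0.19 in vehicle and 0.41 in EVT0185 livers) and Mylk (r = 0.32 and 0.28). S100a4 with Col1a1 had r = 0.018 in vehicle and 0.21 in EVT0185 livers (exact permutation p = 0.968 and 0.621, adjusted p = 0.968 and 0.769). Acta2 with Col1a1 had r = 0.42 and 0.56 (exact permutation p = 0.306 and 0.151, adjusted p = 0.611 and 0.403). S100a4 with Acta2 had r = -0.064 and -0.27 (exact permutation adjusted p = 0.906 and 0.702). With 8 animals, a correlation that was not detected is not shown to be absent, and for Acta2 with Col1a1 a strong positive one remains possible.

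For the contractile pair, r changed when 1 animal was left out of each group. Acta2 with Mylk had r = -0.053 in vehicle and 0.057 in EVT0185 livers (exact permutation p = 0.890 and 0.883, adjusted p = 0.906 for both). Without vehicle 7 and EVT0185 2, left out after the data were seen because of their low panel median, r was 0.77 and 0.76 (exact permutation p = 0.0440 and 0.0458 over 7 animals, not adjusted). In these 2 animals Mylk was at its lowest and Acta2 at 58.3 and 55.8, near the top of its range. Mylk followed the panel median (r = 0.96 in vehicle and 0.93 in EVT0185 livers, exact permutation p = 0.00806 and 0.0163, adjusted p = 0.113 and 0.114 over 14 such correlations). Without the 2 animals farthest from the median on that axis r was 0.0043 and -0.64, so the relation rests on those animals.

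**Figure D5:**
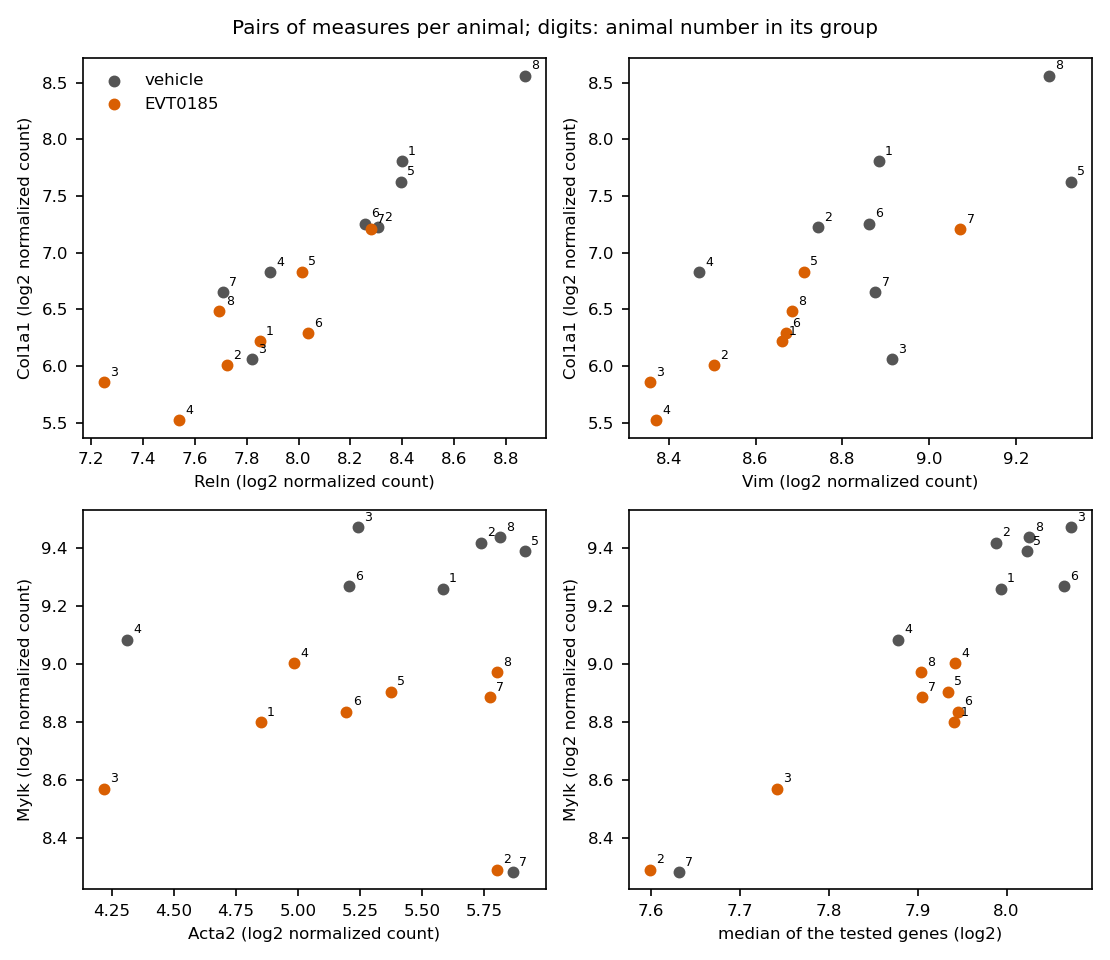
Pairs of measures per animal on the log2 scale, vehicle grey and EVT0185 orange, with the animal number beside each point: Reln and Vim against Col1a1, Acta2 against Mylk, and the median of the 612 tested genes against Mylk. Vehicle 7 and EVT0185 2 lie apart at the low end of both Mylk and the panel median, at 7.63 and 7.60.

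The genes most like each member were ranked by Pearson r over the 16 animals after subtracting each group's mean, among 611 other tested genes, and are given as a description with no p. The animals' common depth and scaling enter every such value. Reln was nearest to Loxl1, a crosslinking enzyme of elastin and collagen (r = 0.94), Col1a1 (0.89) and Mmp2 (0.88), in the same order after median centring. Pdgfrb was nearest to Col5a1, of type V collagen (0.85), the collagen chaperone Serpinh1 (0.82) and Col1a2 (0.81). Vim was nearest to Serpinh1 (0.87), Col14a1 (0.80) and the protease inhibitor Timp2 (0.78). Ddr2 was nearest to Lrrc32, which tethers latent TGF-beta (0.74), the collagen receptor subunit Itga1 (0.73) and Timp2 (0.68). Acta2 had Vim as its nearest gene (0.67), then Mmp2 (0.66) and Cd34 (0.65), a marker of endothelial and progenitor cells. After median centring the first gene of each member stayed first except for Ddr2, where Itga1 was first and Lrrc32 second. Several others moved down: Mmp2 to place 8 for Acta2, Timp2 to place 6 for Vim and 5 for Ddr2, Spp1 to place 5 for S100a4, and Cd34, Col14a1, Cdkn2c and Kansl1 to place 4 for Acta2, Vim, S100a4 and Mylk.

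For the 2 genes that fell, S100a4 was nearest to Casp12, a caspase (0.77), Spp1 (0.73) and the cell cycle inhibitor Cdkn2c (0.69). Of these, Casp12 (log2 -0.53, SE 0.15, limma adjusted p = 0.0132) and Spp1 fell, and Cdkn2c was not called. Mylk was nearest to the acetyltransferase Crebbp (0.97), Atf7ip (0.95) and Kansl1 (0.94). None of these 3 was called between the groups: they differed by -0.12, -0.045 and -0.11 on the log2 scale (limma adjusted p = 0.623, 0.817 and 0.564). The median r of Mylk over all tested genes was 0.31, against 0.15 or lower for the other 6 members.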

How the data were processed

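Per the labels' protocols, liver RNA was hybridized to the nCounter Fibrosis Panel. The authors used nSolver 4.0 for normalization to a global geometric mean, as the design text records. That the deposited table is on a log2 scale was read from its values. Each value, raised from log2, was a whole multiple of 1 step per animal for 100% of the values under 500 counts, within 0.1, which gave the recovered counts. No control probes were used here, so background was not measured.

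Genes with a mean normalized count of at least 20 were tested on the deposited log2 values with limma 3.58.1 in R 4.3.3 (lmFit, eBayes with a variance trend), two-sided, adjusted by Benjamini-Hochberg over all of them. The plan of a pseudocount of 1 applied to a linear table and was not needed. SE and confidence intervals are limma's. Correlations used exact two-sided permutation tests over 40320 pairings. Ratios were fitted in the same way on log2 differences, with the variance trend on the level of the gene itself. All ratios to 1 reference gene share its error, which the pooling of variances across genes in limma does not take into account. Exact permutation of the group labels ran over 12870 assignments and was not adjusted. The model was tested on simulated data.

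The 7 genes and all lists were chosen with earlier results of these data known. Named genes are the 7, Col1a1, at most 3 called genes per pathway list and the 3 most like each member. Rock2, Postn, Ccn2 and other uncalled genes were named after their values were seen. Of 760 names, 754 matched a RefSeq symbol (GRCm38.p6), all 7 members among them. Promoter windows were matched for 6 of the 7, and those of Acta2 and Mylk are printed. The labels state no pairing by replicate number, and the main fits used none. The correlation of same-numbered animals' deviations was over 0.1 in 5 of 8 pairs (-0.14 to 0.46). Differently numbered pairs were not counted beside them, so these values cannot decide on a shared factor, which is neither stated nor excluded.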

Additional observations from a re-analysis of the deposited data

Results flagged for a closer look

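3 values lay far from the others of their group by Dixon's test, among 36 sets of 8 animals checked (each gene and each ratio in each group). Chance alone marks about 1 in 20 such sets. Acta2 in vehicle 4 was 4.31 on the log2 scale, a normalized count of 19.9, against 5.21 in the nearest vehicle animal. Mylk in vehicle 7 was 8.28, a normalized count of 312, against 9.09 in the nearest. The log2 ratio of Ddr2 to Acta2 in vehicle 4 was 1.90, against 0.80 in the nearest, and shares its Acta2 value with the first.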

How the results depend on the processing

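S100a4 kept its call under every setting in which it was tested; a floor of 100 left it out. Leaving out the low-median pair and the panel median correlations were chosen after seeing the data. Ddr2 turned above 0 after median centring (0.035), geometric mean centring (0.043), quantile normalization (0.16) and array weights (0.0087), as did Acta2 after quantile normalization (0.0031), all on the log2 scale. Mylk lost its call after geometric mean centring (-0.31, limma adjusted p = 0.0721). Reln passed with array weights (-0.49) and without vehicle 7 and EVT0185 2 (-0.47), and Vim passed with array weights (-0.36). Of all tested genes, 84 were lower after median centring against 132, and 106 were higher after quantile normalization against 68. Leaving out 1 animal moved the log2 difference of Reln from -0.48 to -0.31, of Vim from -0.35 to -0.23, and of Mylk from -0.55 to -0.35, and of the uncalled Acta2 from -0.37 to -0.062, Pdgfrb from -0.37 to -0.17 and Ddr2 from -0.13 to -0.0087. It moved the ratio to Pdgfrb from -0.078 to 0.054 for Vim and from -0.087 to 0.20 for Acta2, and the ratio to Acta2 from -0.20 to 0.087 for Pdgfrb and from -0.19 to 0.019 for Vim. The ratio to Pdgfrb then called 44 to 97 genes, 29 to 81 of them higher, and the ratio to Acta2 called 17 to 47, 10 to 36 higher and 5 to 17 lower. Of the correlations, 0 passed in EVT0185 livers after median centring, 0 in either group without the 2 farthest animals, where fewer animals remain, and 3 in vehicle and 2 in EVT0185 livers without vehicle 7 and EVT0185 2. The causes were not tested.

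The labels do not say what a shared replicate number stands for. With the replicate number as a block, Mylk lost its call (-0.42, limma adjusted p = 0.0569) and Vim passed (-0.29, limma adjusted p = 0.0495). The ratio to Pdgfrb then called 151 genes, 114 higher and 37 lower, against 57, and the ratio to Acta2 called 72, 44 higher and 28 lower, against 22. Among the collagens, Col1a2 (limma adjusted p = 0.00306) and Col3a1 (0.0232) then passed relative to Pdgfrb, and Col1a1 (0.0161) and Col1a2 (0.0381) relative to Acta2. Of 16 animals, 3 correlated best with their own number, each among the 8 animals of the other group.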
